A study of Arabidopsis thaliana with 18 samples.

Results

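Cell populations from below the epidermis of the Arabidopsis thaliana shoot apical meristem (SAM) were compared, namely the subepidermal miR165a cells and the subepidermal REV cells. The comparison took 6 of the 18 libraries of the study, 3 per population, and used every gene that the authors listed between them. The plants were ap1cal double mutants, which form masses of meristems in place of flowers, and all libraries come from the same triple reporter line. It carried a blue marker of the epidermis (pAtML1::mTag-BFP-ER), a yellow one of the REV domain at the centre (pREV::REV-2YPET) and a green one of the miR165a domain at the periphery (pmiR165a::GFP-ER). The meristems came from plants 4 to 5 weeks old, no treatment was given, and T2 plants were used. The 3 libraries of a population were biological replicates, per the study's methods. Cell walls were digested and the protoplasts were sorted by fluorescence. The miR165a cells carried GFP alone and the REV cells carried YFP alone, so both lacked the epidermal BFP marker. The YFP marker is a fusion to REV itself, so transcripts of the transgene are counted as REV. The GFP marker reads the promoter of MIR165A and not the mature microRNA. The libraries hold bulk RNA, in which fewer cells of a type and less RNA per cell cannot be told apart.

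HD-ZIPIII proteins, class III transcription factors with a homeodomain next to a leucine zipper, specify the upper (adaxial) side of leaves, maintain the meristem and pattern the vascular strands. Their transcripts carry a site for the microRNAs miR165 and miR166, which are made at the periphery and on the lower (abaxial) side, and which direct ARGONAUTE proteins to cut them. The LITTLE ZIPPER (ZPR) genes are switched on by HD-ZIPIII proteins and encode small proteins that bind and inactivate them. KANADI (KAN) and YABBY (YAB) transcription factors act on the abaxial side, and KANADI and HD-ZIPIII genes oppose each other.

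The mature microRNAs and the sites they read are shown because the comparison sets the domain of the microRNA against the domain of a target. All 9 MIR165 and MIR166 genes encode a guide strand with the same seed. The miR165 and miR166 guides differ at a single base near the 3′ end. Each line below is written 5′ to 3′ as RNA from the RefSeq TAIR10.1 genome, with the seed (bases 2 to 8) in capitals. The miR165a guide lies at chr1:78932-78952 on the minus strand, and the miR166a guide at chr2:19176241-19176261 on the plus strand.
miR165a: uCGGACCAggcuucauccccc
miR166a: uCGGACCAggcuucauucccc
In the 5 HD-ZIPIII genes the best ungapped match to the complement of miR165a was searched in the spliced coding sequence. The length of the match was set at 21 bases by the search. In each gene the match was formed by the joining of 2 exons. These were exons 4 and 5 in REV, PHB, PHV and ATHB15 and exons 5 and 6 in ATHB8. In REV the pieces lie at chr5:24398787-24398797 and chr5:24398889-24398898 on the plus strand. Capitals in the sites mark bases that are not the complement of miR165a.
REV: CUgggaugaagccugguccgG
ATHB8: CUgggaugaagccugguccgG
PHB: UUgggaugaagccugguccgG
PHV: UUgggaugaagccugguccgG
ATHB15: CUggAaugaagccugguccgG
The sites of REV, ATHB8, PHB and PHV had 3 such bases and 4 against the complement of miR166a. The site of ATHB15 had 4 against miR165a and 3 against miR166a. REV and ATHB8 held the same site, as did PHB and PHV.

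The authors' deposited tables give each listed gene a mean normalised read count over the libraries compared, a log2 fold change (log2FC) with its standard error (SE), and an adjusted p. No table gives a value per library, so the values behind a mean, the overlap of the populations and the depth of each library are unknown here. The level in each population was therefore solved from the mean count and the log2FC and is called the implied level, in normalised reads per library. For 1606 genes the mean count could also be rebuilt from the authors' fit on all 6 populations, and the rebuilt value was 0.991 times the deposited one at the median. The labels were checked against epidermal markers in the tables that set each population against the epidermal cells of its own domain. Of 16 epidermis markers 12 were lower below the epidermis in the miR165a domain and 13 in the REV domain, against a background of 4.85% and 5.10% of all genes tested. ATML1, whose promoter drove the BFP marker, was lower by log2FC -5.32 ± 0.45 (SE) in subepidermal miR165a cells and by -5.53 ± 0.45 in subepidermal REV cells. HDG1, a gene of the same homeodomain family, was instead 1.96 ± 0.20 higher below the epidermis in the miR165a domain.

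Between subepidermal miR165a and REV cells the authors listed 2123 of the 20597 genes tested, or 10.3% (adjusted p of 0.05 or less and a log2FC of at least 1 in size, DESeq2). Of these 1084 were higher in miR165a cells (5.26% of the genes tested) and 1039 were lower (5.04%). The counts in each direction were close, but the larger differences lay on the REV side. The median log2FC was 1.82 among the higher genes and -2.07 among the lower genes, and a log2FC of at least 4 in size was reached by 77 higher and 178 lower genes. A mean count of at least 50 was reached by 725 higher and 537 lower genes. Whether the difference in size follows from abundance was not tested. The mean normalised count ran from 2.22 to 8894 with a median of 74.7, and the SE of the log2FC from 0.13 to 1.44 with a median of 0.37. In 138 genes the implied level was under 1 read in the lower population, and for these the size of the log2FC depends on the fit. Marker-free (all negative) cells differed from miR165a cells in 428 listed genes and from REV cells in 1505. Of the higher genes 76 were above all negative cells in miR165a cells and 2 below, while 565 were below them in REV cells. Of the lower genes 201 were below them in miR165a cells, and in REV cells 544 were above them and 11 below. These comparisons share libraries, so the counts are no separate support. DESeq2 pools the spread across genes. The same statistics, which keep that pooled spread, were also set against a t distribution with 4 degrees of freedom. After adjustment 0 genes passed, and 2036 of the listed genes had an unadjusted p below 0.05. Of the 673 genes in the 36 lists read below, 186 (27.6%) were listed. The shares over all genes tested apply beside every list count. The overview of all listed genes sets the polarity, vascular and photosynthesis genes among the rest.

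**Figure D1:**
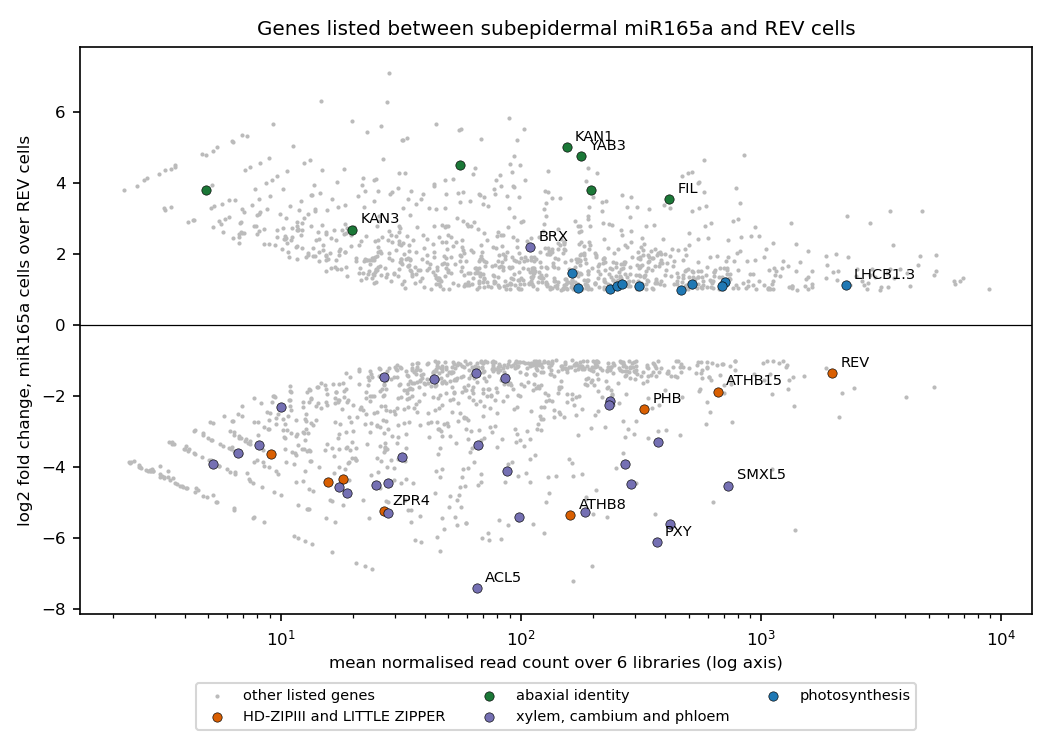
Log2FC of miR165a over REV cells (y axis) against the mean normalised read count over 6 libraries (x axis, log scale) for the 2123 listed genes, 1 point per gene, with 4 groups of genes in colour. The abaxial identity genes lie between 2.69 and 5.02, the HD-ZIPIII and LITTLE ZIPPER genes between -5.37 and -1.36, and the photosynthesis genes between 1.0 and 1.48.

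The targets of the microRNA and their inhibitors were lower in miR165a cells. Of the 5 HD-ZIPIII genes 4 were listed, each lower, with a median log2FC of -2.13. REV, the gene of the sort marker, had implied levels of 1111 in miR165a cells and 2855 in REV cells (log2FC -1.36 ± 0.16, adjusted p = 2.08e-16). It was the most abundant of the 4 and the least different. PHABULOSA (PHB), which acts with REV on the adaxial side, stood at 105.8 and 547 (-2.37 ± 0.24). ATHB15 (CORONA), which restrains meristem size, stood at 282.6 and 1041 (-1.88 ± 0.18). ATHB8, the HD-ZIPIII gene of the procambium, stood at 7.61 and 314 (-5.37 ± 0.73). PHAVOLUTA (PHV) was not listed, although its microRNA site has the same bases as that of PHB, and it was lower in the miR165a cells of the epidermis (-1.03 ± 0.24). Against the marker-free (all negative) cells, which share the REV libraries with this comparison, the REV cells were higher by 1.14 ± 0.14 for REV, 1.40 for PHB, 1.59 for ATHB15 and 5.57 for ATHB8. None of the 4 was listed between miR165a and all negative cells.

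All 4 LITTLE ZIPPER genes were lower in miR165a cells, with a median log2FC of -4.38. ZPR4 had implied levels of 1.39 in miR165a and 52.6 in REV cells (-5.25 ± 0.77, adjusted p = 5.07e-10), ZPR3 of 1.71 and 34.6 (-4.33 ± 0.78), ZPR1 of 1.40 and 30.2 (-4.43 ± 0.85) and ZPR2 of 1.35 and 17.0 (-3.65 ± 0.91). RefSeq classes the ZPR4 locus AT2G36307 as noncoding RNA. In miR165a cells each of the 4 stood at an implied level below 2 reads. REV cells exceeded all negative cells by 3.59 for ZPR4, 3.90 for ZPR3, 1.97 for ZPR1 and 3.64 for ZPR2.

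Of the 9 MIR165 and MIR166 genes only the MIR166A primary transcript was listed. It was higher in miR165a cells, at an implied 6.94 reads against 0.316 (4.46 ± 1.38, adjusted p = 0.0098). Its mean of 3.63 reads made it one of the weakest transcripts in the table. In the authors' fit on all populations of the study the log2FC of MIR166A was smaller, at 2.17. The direction was the same, but the size of this difference depends on the fit. MIR165A itself, whose promoter defined the GFP gate, was in none of the 18 tables used, so the gate could not be checked by its own gene.

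Genes of abaxial identity were higher in miR165a cells. Of 12 members 7 were listed, each higher, with a median of 3.81 against 1.82 for all higher genes. KAN1 had an implied level of 301.7 in miR165a cells and 9.30 in REV cells (5.02 ± 0.34, adjusted p = 8.10e-47). YAB3 stood at 343 and 12.6 (4.77 ± 0.33), and FILAMENTOUS FLOWER (FIL), its closest relative, at 765 and 64.8 (3.56 ± 0.26). KAN2 stood at 366 and 26.3 (3.80 ± 0.32) and YAB2 at 106.7 and 4.65 (4.52 ± 0.49). KAN3 and ATS, a KANADI gene known for ovule integuments, were weaker transcripts with implied levels in miR165a cells of 34.4 and 9.15. These KANADI and YABBY genes thus differed by more than the HD-ZIPIII genes other than ATHB8. ARF3 and ARF4, the abaxial auxin response factors, were not listed, nor were YAB5, CRC and INO. For some unlisted genes a log2FC could be derived from other tables of the fit on all 6 populations. Only genes listed in other comparisons that include these populations have such a value, so genes with one are a selected part. The derived log2FC was -0.17 for CRC and 0.02 for INO. Against all negative cells the log2FC of REV cells was -4.35 for KAN1, -3.69 for YAB3, -3.11 for FIL, -3.76 for KAN2 and -2.64 for YAB2. Of these 5 genes only YAB2 was also listed between miR165a and all negative cells, at 1.57.

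**Figure D2:**
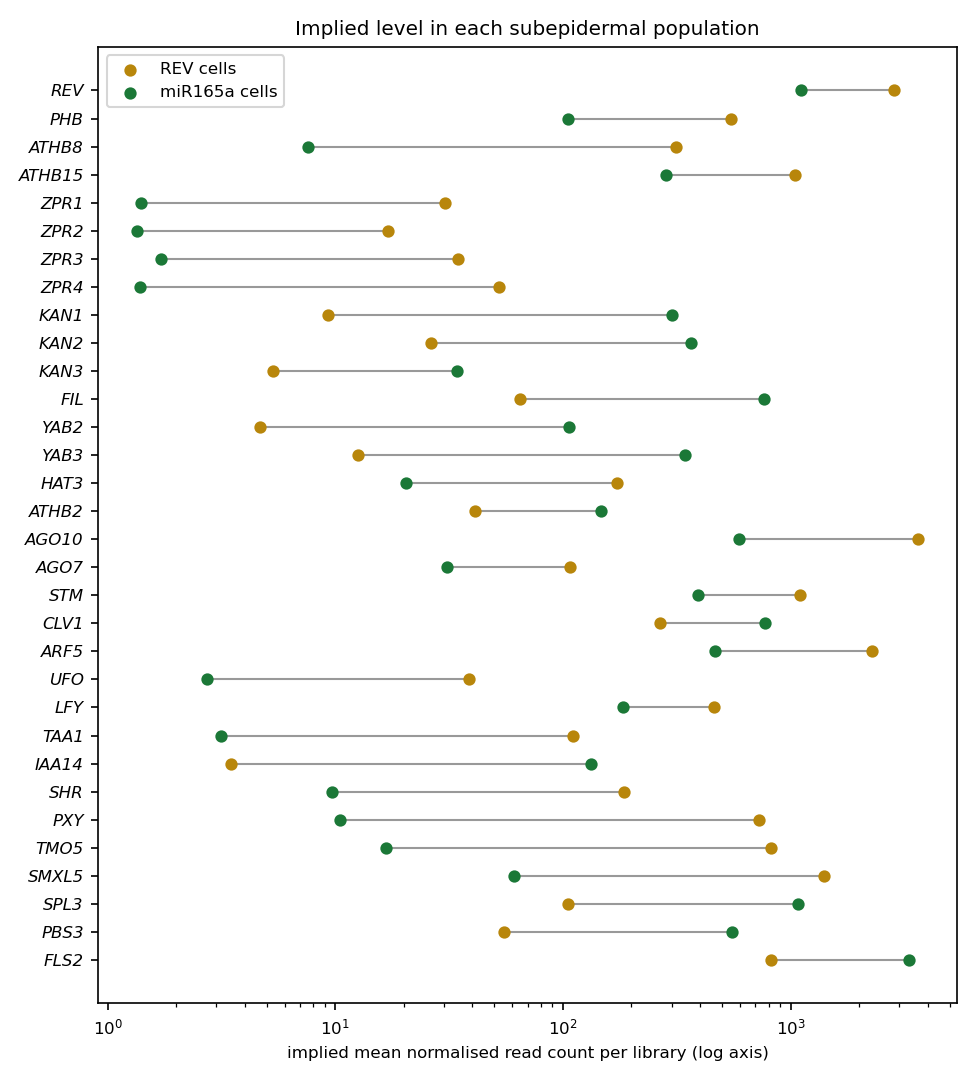
Implied mean normalised read count per library (x axis, log scale) in REV cells and in miR165a cells for selected genes, 1 row per gene, solved from the mean count and the log2FC of the table, with no error shown. FIL, KAN1, KAN2, YAB2 and YAB3 lie to the right in miR165a cells, and the HD-ZIPIII and ZPR genes lie to the right in REV cells.

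Adaxial partners moved in both directions. Of 12 genes in the list of AS1, AS2 and class II HD-ZIP (HD-ZIPII) genes, 5 were lower and 2 higher in miR165a cells. HAT3, an HD-ZIPII gene that works on the adaxial side, stood at 20.4 in miR165a and 172.5 in REV cells (-3.08 ± 0.31). HAT14 stood at 1.39 and 36.6 (-4.72 ± 0.82) and HAT22 at 339.7 and 742 (-1.13 ± 0.22). ATHB17 and ATHB18 were lower at -2.29 and -3.28, both at mean counts below 10. The shade-responsive ATHB2 was higher, at 146.9 against 40.9 (1.84 ± 0.28), and so was ATHB4, which is known to act together with HAT3, at 178.9 against 85.2 (1.07 ± 0.26). HAT3 and ATHB4 therefore differed in opposite directions here.

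Of 9 ARGONAUTE genes 4 were listed, each lower in miR165a cells. AGO10 (PINHEAD), which binds miR165 and miR166 and keeps them from AGO1, stood at an implied 596 in miR165a cells and 3628 in REV cells (-2.60 ± 0.21, adjusted p = 8.89e-33). It was among the 5 most abundant of all genes lower in miR165a cells. AGO7, which loads miR390 to start the trans-acting small RNA pathway, stood at 30.8 and 107.9 (-1.81 ± 0.31). The TAS3 transcript, from which that pathway makes small RNAs against ARF3 and ARF4, was lower too (-3.30 ± 1.22, adjusted p = 0.041), at a mean of only 3.52 reads. AGO5 and AGO3 were lower at -2.93 ± 0.39 and -1.64 ± 0.28. AGO1, the main microRNA effector, was not listed.

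In the list of meristem genes 3 of 15 were lower and 1 higher. SHOOT MERISTEMLESS (STM), which keeps meristem cells undifferentiated, stood at 390.7 in miR165a and 1099 in REV cells (-1.49 ± 0.18). WUSCHEL (WUS), the organising centre gene, and CLAVATA3 (CLV3), the stem cell peptide that limits it, were rare. They stood at 1.69 against 14.5 (-3.09 ± 0.93) and at 3.1 against 18.4 (-2.57 ± 0.74). The receptor gene CLAVATA1 (CLV1) went the other way, at 768 against 265.7 (1.53 ± 0.18). None of the 12 organ boundary genes was listed, and the 7 with a derivable log2FC lay between -0.92 and 0.54.

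Organ initiation genes were nearly all lower in miR165a cells, 10 of 12 with 1 higher and a median of -2.34. ARF5 (MONOPTEROS), the auxin response factor that starts flowers, stood at 468 in miR165a and 2284 in REV cells (-2.29 ± 0.15, adjusted p = 1.89e-51). The AP2-type growth genes AIL6 (-2.36 ± 0.23) and ANT (-1.44 ± 0.20) and the floral identity gene LEAFY (LFY, -1.32 ± 0.19) were lower. UNUSUAL FLORAL ORGANS (UFO), the partner of LFY, was lower at -3.82 ± 0.66. PETAL LOSS (PTL), a growth repressor between sepals, was the only higher member (1.59 ± 0.50).

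The flowering list was split, with 3 of 28 higher and 3 lower. SPL3, a target of miR156 that promotes the floral transition, was at 1080 in miR165a and 104.9 in REV cells (3.36 ± 0.18, adjusted p = 2.26e-77). A long noncoding RNA gene, AT2G33815, overlaps SPL3 and had nearly the same values (3.30 ± 0.18, mean count 552.6). The library kit is not described as marking strand, so reads of this pair cannot be told apart. SPL5 was higher at 1.46 ± 0.24, and so was the petal and stamen gene PISTILLATA (PI) at 1.39. TERMINAL FLOWER 1 (TFL1), which keeps shoots indeterminate, was lower at -2.40 ± 0.30, and PERIANTHIA (PAN), which sets organ number, at -3.46 ± 0.42. The floral organ identity genes AP1, AP3, AG and SEP3 were not listed.

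Of 24 xylem and cambium genes 11 were lower in miR165a cells and 0 higher, with a median of -4.58 against -2.07 for all lower genes. ACL5, whose thermospermine keeps xylem cells from dying early, had the lowest log2FC of the whole table (-7.41 ± 0.92), at an implied 0.764 reads in miR165a cells and 130.3 in REV cells. PXY, the cambial receptor of the CLE41 and CLE44 peptides, stood at 10.4 and 727 (-6.12 ± 0.31, adjusted p = 7.43e-82). TMO5 and T5L1, bHLH proteins that drive divisions of vascular cells, stood at 16.7 against 824 (-5.63 ± 0.30) and 4.51 against 191.6 (-5.41 ± 0.46). TMO6, a Dof transcription factor, stood at 33.5 and 511 (-3.93 ± 0.24). The cambium gene WOX4 (-4.58 ± 0.84), the xylem vessel switch VND7 (-4.73 ± 0.81) and the xylem protease gene XCP2 (-3.92 ± 1.15) were lower too, whereas the secondary wall genes IRX3, MYB46 and SND1 were not listed.

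Phloem genes behaved alike in sign, with 16 of 24 lower, 1 higher and a median of -3.61. SMXL5, SMXL4 and SMXL3, which promote phloem formation, were lower at -4.53 ± 0.24, -5.26 ± 0.34 and -5.30 ± 0.78. SMXL5 stood at 60.8 in miR165a and 1403 in REV cells. OPS (-3.31 ± 0.21) and CVP2 (-2.13 ± 0.20), which set phloem cell fate, were lower. So were the identity gene APL (-3.71), the sieve element genes SEOR1 (-4.12) and SEOR2 (-3.38), the receptor gene BAM3 (-4.50) and the sugar exporters SWEET11 (-4.50) and SWEET12 (-4.46). BREVIS RADIX (BRX), which acts at the plasma membrane of protophloem cells, was the exception at 2.2 ± 0.29. Over both lists 27 genes were lower in miR165a cells and 1 was higher, so most listed vascular transcripts were more abundant in the REV sort. How far the other gene groups follow the content of vascular cells was not tested.

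Of 14 auxin synthesis genes 4 were lower in miR165a cells and 0 higher, with a median of -3.90. TAA1, the tryptophan aminotransferase of the first step, stood at 3.15 in miR165a and 110.2 in REV cells (-5.13 ± 0.59). The YUCCA genes of the next step were lower for YUC6 (-3.60 ± 0.62), YUC4 (-3.48 ± 0.77) and YUC2 (-4.21 ± 1.40), all at mean counts below 28. Of 18 transport genes 4 were lower and 2 higher. The influx carrier LAX2 stood at 49.2 in miR165a and 175.3 in REV cells (-1.83 ± 0.27). Its relative LAX3 (3.95 ± 1.16, at a mean of 5.17 reads) and the efflux pump ABCB1 (1.40 ± 0.16, at 4137 against 1568) were higher.

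The Aux/IAA repressors of auxin response were split between the populations. IAA14 (SOLITARY-ROOT) was at 132.9 in miR165a and 3.48 in REV cells (5.26 ± 0.57), and IAA7 at 274.3 and 78.6 (1.80 ± 0.24). IAA28 was at 1.72 and 54.5 (-4.99 ± 0.72), and IAA2 at 604 and 1588 (-1.39 ± 0.25). Of the 40 Aux/IAA and ARF genes in the list 6 were lower and 2 higher, and none of the auxin response factors in it was listed.

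Among cytokinin genes 5 of 40 were lower and 1 higher, or 15% listed against 10.3% of all genes tested. LOG7 and LOG1, which release active cytokinin, were lower at -3.12 ± 0.34 and -1.74 ± 0.26, the oxidase gene CKX6 at -1.30 ± 0.22, and the response regulators ARR9 and ARR5 at -2.83 and -1.55. PUP7, a purine permease, stood at 340.9 in miR165a and 40.2 in REV cells (3.09 ± 0.26). None of the 3 cytokinin receptor genes was listed. Of 29 gibberellin genes 3 were higher and 1 lower, or 13.8% listed, which is near the share of all genes tested. GA2OX4, which inactivates gibberellin, was higher at 1.86 ± 0.27, and so were GA20OX2 (1.90 ± 0.53) and GA3OX3 (1.54 ± 0.43), which make it. The early synthesis gene GA3 was lower at -1.09 ± 0.22.

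Brassinosteroid genes were lower in 5 of 17 cases and higher in 1. CPD and CYP90D1, cytochrome P450 genes of the synthesis pathway, stood at 28.5 in miR165a against 471 in REV cells (-4.05 ± 0.25, adjusted p = 3.35e-57) and at 0.696 against 25.3 (-5.18 ± 1.04). The vascular receptors BRL1 and BRL3 were lower at -2.29 ± 0.49 and -2.03 ± 0.26, and the rate-limiting enzyme gene DWF4 at -1.19 ± 0.36. The general receptor gene BRI1 was not listed. BKI1, an inhibitor of that receptor, was higher (1.87 ± 0.69).

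Cell division genes were modestly lower in miR165a cells. Of 36 genes of mitosis and cytokinesis 11 were lower and 0 higher, with a median of -1.14, and 7 of the 11 overlap no other gene. These included the cyclin genes CYCB3;1 (-1.68 ± 0.27), CYCA2;4 (-1.79 ± 0.30) and CYCB1;3 (-1.88 ± 0.35) and the cytokinesis syntaxin KNOLLE (KN, -1.0 ± 0.19). Of the 25 that were not listed 14 had a derivable log2FC, and 13 of these were below 0, with a median of -0.84. These 14 were selected by being listed in other comparisons of these populations, so their signs are no separate support. Of 30 genes of G1 control and DNA replication 7 were lower and 1 higher. The replication clamp genes PCNA2 (-1.82 ± 0.38) and PCNA1 (-1.41 ± 0.35), the chromatin assembly gene FAS1 (-1.15 ± 0.28) and the helicase loader CDC6 (-1.90 ± 0.57) were lower, and the G1 cyclin CYCD1;1 was higher (1.23 ± 0.24). The cell cycle inhibitor KRP2 was also lower (-2.26 ± 0.24), as 1 of 8 inhibitors.

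DNA methylation genes were lower in 5 of 10 cases, with 1 higher. The maintenance methyltransferase MET1 stood at 335 in miR165a and 803 in REV cells (-1.26 ± 0.25). The chromatin remodeller DDM1 was lower at -1.37 ± 0.24 and the histone methyltransferase SUVH4 at -1.34 ± 0.23, beside the chromomethylases CMT2 and CMT3, both at -1.02. NRPD1, the largest subunit of RNA polymerase IV, was higher (1.21 ± 0.20).

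SHORT-ROOT (SHR), a mobile GRAS factor that leaves the vascular cylinder, stood at 9.67 in miR165a and 186.0 in REV cells (-4.27 ± 0.36). IDD16, a zinc finger gene, was higher at 2.52 ± 0.54. JACKDAW (JKD), a zinc finger partner of SHR, was absent from the table used here. In the reverse table, from the fit on all 6 populations, it was higher in miR165a cells by 5.26 ± 0.32. Among the epidermal patterning peptides EPFL9 (STOMAGEN), which is made in inner tissue and promotes stomata, stood at 42.0 and 2.35 (4.16 ± 0.69) and EPFL6 at 84.0 and 29.3 (1.52 ± 0.36). Their receptor gene ERL1 was lower (-1.19 ± 0.26). GRF7 was the only listed member of 21 TCP, GRF and GIF growth factor genes (2.24 ± 0.28).

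Photosynthesis genes were higher in miR165a cells by a small amount. Of 38 genes 11 were listed, each higher, between 1.0 and 1.48. The antenna genes LHCB1.3 and LHCB1.2 stood at 3101 against 1415 (1.13 ± 0.14) and 994 against 425 (1.22 ± 0.15), LHCB2.2 at 241.8 against 86.7 (1.48 ± 0.22), and GAPB, of the Calvin cycle, at 712 against 318.7 (1.16 ± 0.17). A further 17 had a derivable log2FC, all between 0.59 and 0.97 with a median of 0.74, under the limit of 1. They too were selected by being listed in other comparisons of these populations. The LHCB genes have near-identical copies, between which reads may have been split.

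Of 28 immunity genes 5 were higher and 0 lower. PBS3, which makes salicylic acid from isochorismate, stood at 555 in miR165a and 55.1 in REV cells (3.33 ± 0.26, adjusted p = 9.09e-34). FLS2, the flagellin receptor, stood at 3303 and 824 (2.0 ± 0.18) and its kinase BIK1 at 841 and 289.7 (1.54 ± 0.23). MLO2, the powdery mildew susceptibility gene, was higher at 1.13 ± 0.13, and the regulator CBP60G at 1.72 ± 0.28. The salicylic acid marker genes PR1, PR2 and PR5 and the WRKY genes of the list were not listed. Of 27 jasmonate and wounding genes 2 were lower, the synthesis gene AOC1 (-1.30 ± 0.37) and the conjugating enzyme gene JAR1 (-1.12 ± 0.18). That is 7.41% of the list, below the 10.3% of all genes tested. None of the 18 heat shock genes was listed.

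Transporters of the same family lay on both sides. Sulfate transporters SULTR3;1 (1396 in miR165a and 251 in REV cells, 2.48 ± 0.28), SULTR3;3 (452 and 77.1, 2.55 ± 0.29), SULTR2;2 (2.74 ± 0.50) and SULTR3;2 (1.82 ± 0.35) were higher. SULTR3;4 (-1.64 ± 0.23) and SULTR2;1 (-4.02 ± 1.42, at a mean of 2.63 reads) were lower, as were the metal-nicotianamine transporter YSL1 (21.8 and 297.5, -3.77 ± 0.31) and the zinc pump HMA4 (-1.70 ± 0.21). Amino acid permease AAP1 was higher (1.35 ± 0.20), and AAP6 (-2.95 ± 0.32), AAP7 (-2.80 ± 0.62) and AAP4 (-3.57 ± 0.96) were lower. The glucosinolate transporter GTR2 stood at 67.0 and 608 (-3.18 ± 0.21). MYB51, which activates indole glucosinolate genes, was higher (2.29 ± 0.20), and MYB28, which activates the aliphatic branch, was lower (-2.94 ± 0.85).

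Of 20 expansin and XTH genes 3 were lower and 2 higher, and of 23 phenylpropanoid and flavonoid genes 1 was lower and 2 higher. The shares listed were 25% and 13.0%, beside 10.3% of all genes tested. The expansin genes EXPA10 (1.87 ± 0.23) and EXPB3 (1.39 ± 0.23), which loosen walls, were higher, while EXPA1 (-2.04) and the xyloglucan enzymes XTH23 (-2.92 ± 0.27) and XTH15 (-1.98 ± 0.21) were lower. The lignin gene CAD4 was lower (-1.72 ± 0.27), and the flavonoid genes TT7 (1.99 ± 0.50) and LDOX (2.61 ± 0.80) were higher.

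Of the 16 epidermis markers 3 were higher in miR165a cells and 0 lower, namely HDG1 (1088 in miR165a and 148.8 in REV cells, 2.87 ± 0.17), ANL2 (2352 and 319.9, 2.88 ± 0.18) and HDG11 (50.3 and 22.1, 1.19 ± 0.40). The other defining markers were not listed, and the 11 with a derivable log2FC, ATML1 at 0.18 and PDF1 at 0.25 among them, lay between -0.50 and 0.90. None of the 9 stomatal lineage markers was listed. The plot of listed members by list shows the groups in the order of their medians.

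**Figure D3:**
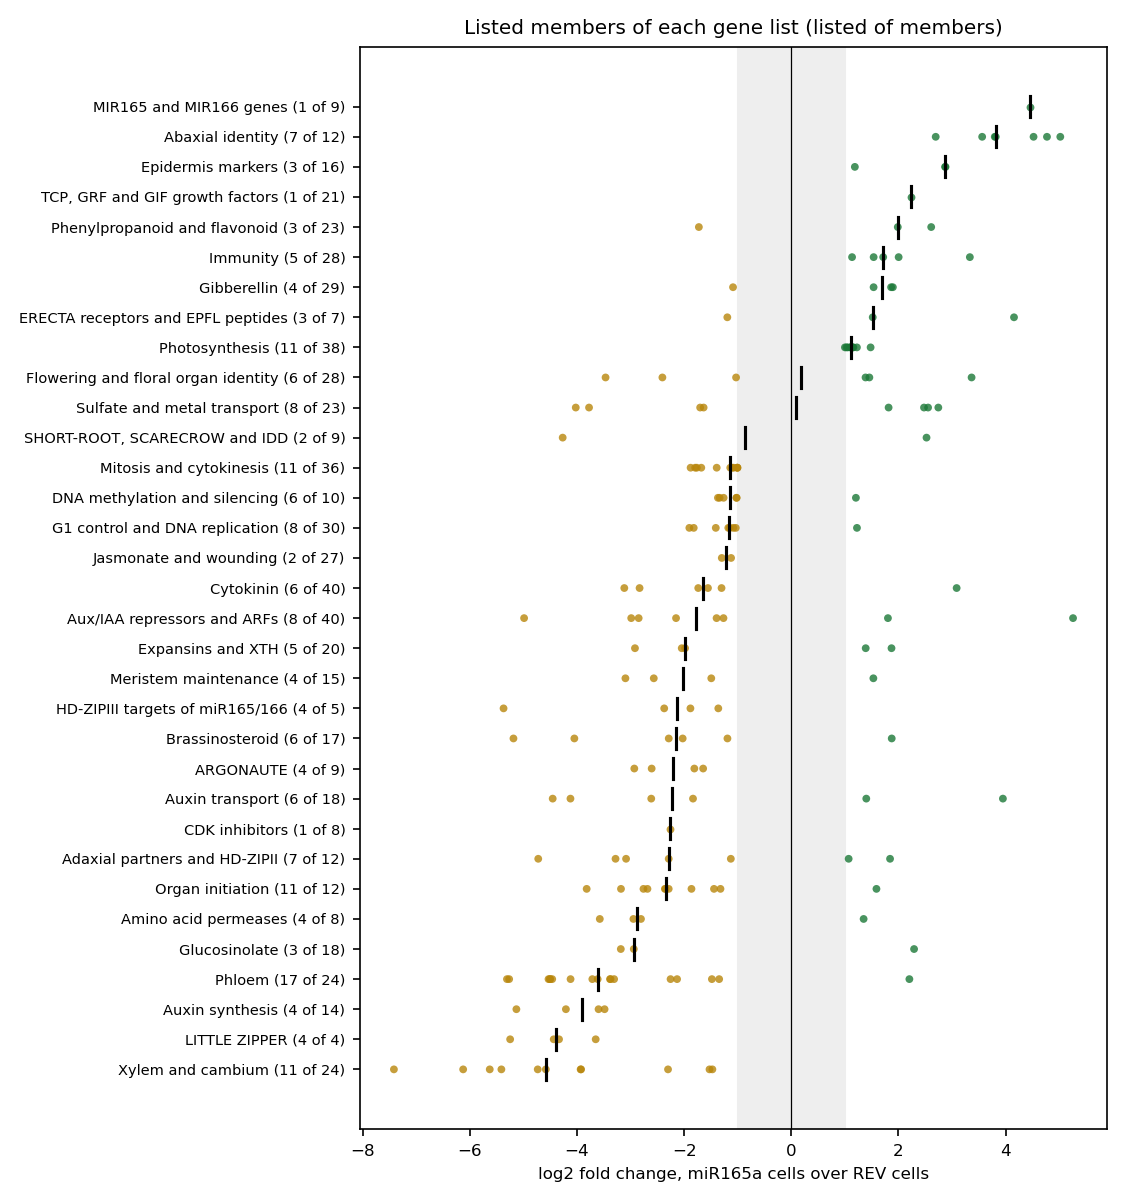
Log2FC of miR165a over REV cells (x axis) for the listed members of each gene list, 1 row per list and 1 point per gene, with the median as a black bar and the number listed of all members in the row name. The grey band marks the sizes below 1 that the table leaves out, and the rows run from xylem and cambium (median -4.58) to abaxial identity (3.81) and the single MIR166A.

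Across the whole table, among genes with a mean count of at least 50, the 10 lowest log2FC were those of ACL5, PXY, AT3G18280, a lipid-transfer-like protein (-7.22 ± 0.63), the bHLH genes AT1G61660 (-6.79 ± 0.49) and AT1G27660 (-6.02 ± 0.62), the amino acid exporter family gene UMAMIT10 (-6.06 ± 0.67), the Dof factor DAG1 (-6.05 ± 0.59), the zinc finger gene AT3G15680 (-5.88 ± 0.46), WRKY13 (-5.88 ± 0.59) and the subtilase gene AT4G21650 (-5.78 ± 0.56). AT4G21650 was by far the most abundant of these, at 49.5 in miR165a and 2721 in REV cells. The highest were AT5G57123, which the files leave without a description (175.1 in miR165a and 3.06 in REV cells, 5.84 ± 0.53), NAKR2, a metal-binding domain protein (5.54 ± 0.62), the SAUR-like AT2G28085 (5.53 ± 0.49), the OVATE family gene OFP12 (5.50 ± 0.63), IAA14, the squalene epoxidase gene SQE6 (5.22 ± 0.46), KAN1, CYP714A1, a P450 that inactivates gibberellin (4.80 ± 0.33), AT4G23870 (TZ1), whose mutants resist aluminium (4.78 ± 0.40), and YAB3. CYP714A1 stood out by its level, at 1638 in miR165a and 58.9 in REV cells. In the fit on all 6 populations the log2FC was smaller in size by over 1.5 times in fold for ACL5 (-6.13), AT3G18280 (-5.14), AT1G61660 (-5.97), AT1G27660 (-5.16), WRKY13 (-5.17) and AT4G21650 (-4.96). The same held for IAA14 (4.57), AT5G57123 (5.22), AT2G28085 (4.87) and CYP714A1 (3.92), so the order of these genes depends on the fit.

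The most abundant genes differed by less. The higher ones were led by the leucine-rich repeat gene AT1G33590 (11903 in miR165a and 5885 in REV cells, 1.02 ± 0.22), the ankyrin repeat gene AT2G24600 (1.32 ± 0.19), AT1G69890 (1.25 ± 0.19), the undescribed AT1G25275 (1.25 ± 0.21) and the glutathione transferase GSTF10 (1.17 ± 0.25). The lower ones were led by DJ1A (2431 and 8123, -1.74 ± 0.25), the metallothionein MT2B (1584 and 6451, -2.03 ± 0.19), the zinc exporter PCR2 (-1.78 ± 0.31), AT5G02370, described as a microtubule motor (-1.92 ± 0.18), and AGO10.

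The same domains were compared in the epidermis, with other libraries, and 3459 of 21218 genes (16.3%) were listed there. Both comparisons listed 958 genes, or 45.1% of the subepidermal and 27.7% of the epidermal list. Of these 586 were higher in miR165a cells in both layers, 287 lower in both, 76 lower below the epidermis and higher in it, and 9 the reverse. The difference between the layers was tested per gene with a z test (two-sided) of the log2FC and SE, Benjamini-Hochberg adjusted over these 958 genes, and 279 genes (29.1%) passed. The subepidermal log2FC minus the epidermal one was positive in 71 of these and negative in 208. Over all 958 genes the median difference was -0.17, and the epidermal list held 2378 higher and 1081 lower genes. The 85 genes with opposite signs are among the 279, which follows from their being listed in both layers. The other 194 had the same sign in both. Genes listed in only 1 layer could not be tested.

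KAN1 did not pass (5.02 below and 4.85 in the epidermis), and nor did REV (-1.36 and -1.18), YAB3 (4.77 and 4.74) or HAT3 (-3.08 and -3.28). FIL did, with 3.56 ± 0.26 below and 2.17 in the epidermis (difference 1.39 ± 0.42, adjusted p = 0.00468). So did PHB, at -2.37 below and -1.59 in the epidermis (difference -0.78, adjusted p = 0.0385). With SE widened 1.5 times neither FIL nor PHB passed. PXY was lower by more below the epidermis, at -6.12 and -1.62 (difference -4.51, adjusted p = 3.03e-17). CLV3 and AGO5 differed in the other sense, with CLV3 at -2.57 below and -7.04 in the epidermis (difference 4.47) and AGO5 at -2.93 and -5.68 (difference 2.76). Below the epidermis CLV3 stood at a mean count of only 10.7. Opposite signs were found for HAT14 (-4.72 below and 3.59 in the epidermis), IAA28 (-4.99 and 2.35) and IAA2 (-1.39 and 1.28). HDG11 (1.19 and -1.15), ATHB4 (1.07 and -1.25) and GA3OX3 (1.54 and -3.09) were among the 9 higher below and lower above.

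**Figure D4:**
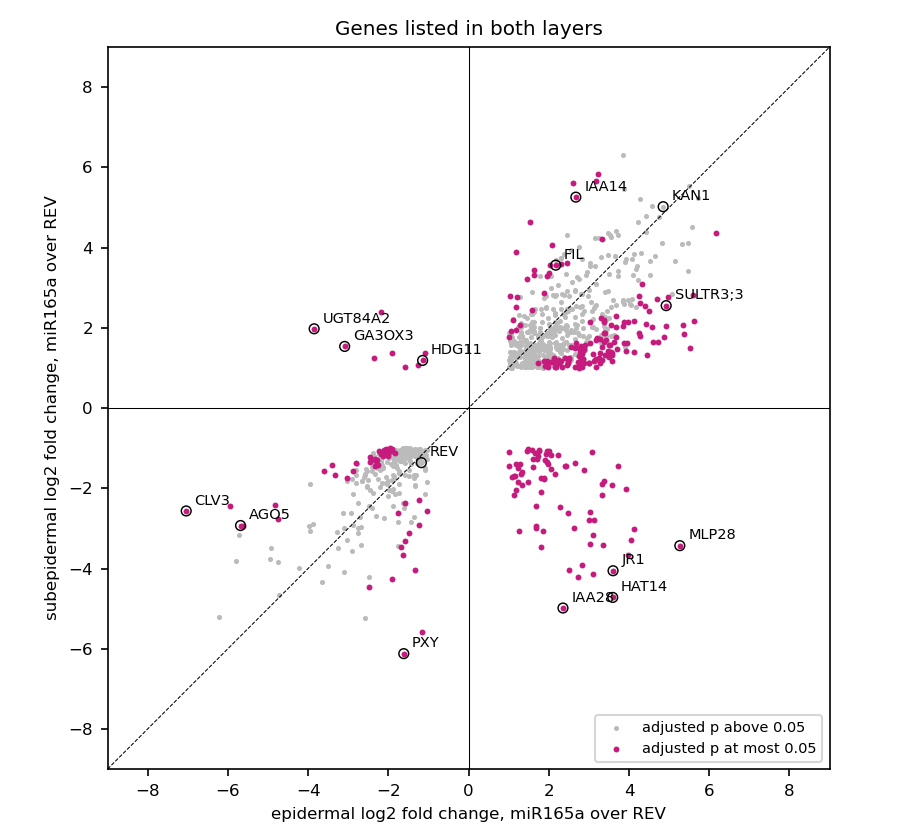
Log2FC of miR165a over REV cells below the epidermis (y axis) and in the epidermis (x axis) for the 958 genes listed in both, 1 point per gene, with the 279 that differed between layers (adjusted p of at most 0.05, z test) in pink and equal values on the dashed line. KAN1 and REV lie by the line, HAT14, IAA28, JR1 and MLP28 lie at the lower right with opposite signs, and CLV3 and AGO5 lie above the line on the left.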

How the data were processed

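RNA of sorted protoplasts from 6 of 18 libraries was compared, 3 per population. Per the study's methods, the authors used cutadapt to trim, FastQC to check, TopHat to map on TAIR10, HTSeq to count reads in exons and DESeq2 for the fit, with versions not given in the sources used here. The files deposited are the authors' comparison tables alone, so their columns were used as the measurement. The deposited mean count is a signal, a read count normalised by library and averaged over the libraries of the fit. The deposited log2 fold changes and their SE, the deposited Wald statistic (a score) and the deposited p-values, raw and adjusted, were taken as given. The authors kept rows whose adjusted p was at most 0.05 and whose log2FC had a size of at least 1. The reverse table came from a fit on all 6 populations and served as a check.

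The number of genes tested was solved from raw and adjusted p. Implied levels were solved from the mean count and the log2FC. Layers were compared by a z test (SciPy 1.17.1) with Benjamini-Hochberg adjustment, which was tested on simulated data. Genes in 36 lists (673 genes matched by symbol, 9 entries left out) were named by a rule, namely all listed members of the first 4 lists, up to 4 of each other list by adjusted p, the 10 highest and 10 lowest log2FC at a mean count of at least 50, the 5 most abundant genes in each direction and the 5 largest layer differences of each sign. A further gene picked by this rule is not reported here. Genes named beyond it were chosen after their values were seen. The members and lists were chosen with earlier results of these data known. Of the listed genes 473 overlap another annotated gene, REV, KAN1, ARF5 and ACL5 among them, and their reads cannot be fully separated without strand. MicroRNA guides and sites were read from the RefSeq TAIR10.1 genome.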

Additional observations from a re-analysis of the deposited data

Results flagged for a closer look

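The log2FC of miR165a over REV cells differed between the subepidermal and the epidermal comparison in 40 of the named genes, by the z test adjusted over the 958 genes listed in both layers. Each number below is the subepidermal minus the epidermal log2FC. No cause was tested, and epidermal and subepidermal cells were sorted by different gates.

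Opposite signs with a lower value below the epidermis were found for HAT14 (-8.31), IAA28 (-7.34), IAA2 (-2.68), AOC1 (-3.20), PCR2 (-3.66), MLP28 (-8.70), JR1 (-7.66), CYP708A3 (-6.72), AT3G26590 (-5.95) and AT4G28150 (-5.61). MLP28 is a latex-like protein, JR1 a jasmonate-responsive lectin, CYP708A3 a cytochrome P450 and AT3G26590 a MATE transporter. Opposite signs with a higher value below the epidermis were found for HDG11 (2.33), GA3OX3 (4.62), UGT84A2 (5.83) and AT1G55200 (3.26). UGT84A2 is a glucosyltransferase and AT1G55200 a kinase.

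Genes lower in miR165a cells of both layers, and by more below the epidermis, were PHB (-0.78), AGO10 (-0.85), ARF5 (-1.05), PXY (-4.51), CPD (-2.70), SHR (-2.36) and XTH23 (-1.69). Those lower by more in the epidermis were AGO5 (2.76), CLV3 (4.47), ANT (0.89), LFY (0.98), DDM1 (1.43) and MET1 (1.08). Genes higher in miR165a cells of both layers, and by more below the epidermis, were FIL (1.39), SPL3 (1.35), IAA14 (2.58), HDG1 (1.0), AT5G57123 (2.61), THA1 (3.1) and AT4G13495 (2.69). Those higher by more in the epidermis were PUP7 (-1.23), LHCB1.3 (-0.61), GAPB (-0.94), MLO2 (-1.13), SULTR3;3 (-2.37) and MYB51 (-1.38). AT4G13495 overlaps MIR850 and other noncoding genes, and THA1 is threonine aldolase.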

How the results depend on the processing

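The counts moved by more than 1.5 times under several settings, the count of lower genes under more of them than that of higher genes. With a log2FC of at least 2 in size 449 genes were higher and 547 lower, or 4.84% of the genes tested, and 99 of the 186 listed members of the gene lists were left. With an adjusted p of 0.001 or less 669 genes were lower. With a mean count of at least 50 there were 537 lower genes, and the share listed was 6.13%. These settings can only remove genes. With a t distribution with 4 degrees of freedom 0 genes were higher and 0 lower, a share of 0%, and the smallest adjusted p was 0.0697. That setting changed the reference distribution alone, because the statistics still carry the spread that DESeq2 pools across genes. A test without pooling could not be run, as no values per library are given. With SE widened 1.5 times 145 of the 279 layer differences passed, and 16 of the 40 named ones did not, PHB and FIL among them.

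The other settings kept the counts over all genes within 1.5 times. Counts within single lists, of either direction, moved by more in 14 cases without overlapping genes, in 5 at a mean count of at least 10 and in 4 in the reverse table. Without overlapping genes 7 mitosis, 4 G1 and replication, 3 cytokinin and 3 brassinosteroid genes were lower, and 7 photosynthesis, 3 immunity and 1 flowering genes were higher. At a mean count of at least 10 MIR166A is left out. The reverse table, from the fit on all 6 populations, gave 1092 higher and 1058 lower genes, shared 1984 genes with the table used and gave 0 of them the opposite sign. Of the 151 named genes 146 were in it, each with the same direction, and WUS, KN, AOC1, UMAMIT10 and AT1G33590 were not. Without the genes that overlap another gene, a setting chosen after seeing the data, 834 were higher and 816 lower. The layer test on the fit on all 6 populations called 308 of 1022 genes, 234 of them shared, and lost ANT and LHCB1.3. Of 25 named genes with values in both tables against all negative cells 9 moved by more than 1 SE and 0 changed sign. Those tables come from the same fit as the reverse table, so this repeats that check and adds no further one. No paired analysis was possible because the tables hold no value per library, and for the same reason no library could be left out. Depth per library is unknown. At mean counts below 10 the fit on all 6 populations gave log2FC 0.69 times as large at the median, and at 200 or more 0.98 times.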

Other observations

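Other gene families were grouped by the descriptions in the deposited tables, after their values had been seen, so they carry no test. A description was found for 8356 genes of any table, of which 2105 (25.2%) were listed here. Of 21 genes found by description as Dof zinc fingers 14 were lower in miR165a cells and 2 higher, with a median log2FC of -3.18. The Dof gene TMO6 was not among those found this way, so the count does not cover the whole family. DAG1 (-6.05), HCA2 (-4.93), OBP2 (-4.54) and DOF6 (-4.28) were among the lower ones, and DOF2 (1.86) and AT1G47655 (1.59) were the higher ones. Of 42 NAC domain genes 14 were lower and 1 higher. The vessel gene VND1 (-5.17, at a mean of 6.39 reads) and NAC028 (-5.14) were the lowest, and LOV1 was the higher one (2.47). Of 22 EamA-like transporter genes 8 were lower, SIAR1 (-6.89) the most, and 3 higher.

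Of 64 TIR-NBS-LRR resistance genes 24 were higher and 0 lower, with a median of 1.55. LAZ5 (2.15), RPP4 (1.45), RPP5 (1.31) and SNC1 (1.16) were among them, as were AT1G72900, AT1G72910, AT1G72920, AT1G72940 and AT1G72950. Members of this family are close copies, so reads of near-identical members are uncertain. Of 18 cysteine-rich receptor-like kinase genes 7 were higher and 0 lower, with CRK40 the highest (4.30), and of 17 S-locus lectin kinase genes 6 were higher and 0 lower. Of 64 pentatricopeptide repeat genes 0 were listed.

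Among genes annotated as long noncoding RNA, AT4G38552 was the most abundant listed (1.96 ± 0.16, mean 4591), followed by AT4G13505 (1.04 ± 0.21, mean 634) and AT5G64572 (3.23 ± 0.64, mean 517) apart from the SPL3 neighbour AT2G33815. MIR163 was lower (-2.79 ± 0.48, mean 48.1), while MIR850 (5.66 ± 1.28, mean 9.28) and MIR414 (2.63 ± 0.67) were higher. TAS1C was higher at 2.76 ± 1.05, at a mean of only 5.23 reads and with a DESeq2 adjusted p of 0.049, near the limit of 0.05.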
